A study of Mus musculus with 7 samples.

Results

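The cells described here are 1180 cells of adult mouse brain that carry the RNA of astrocytes, out of 6986 kept cells in the 3 libraries made at postnatal day 60 (P60) and 21002 kept cells in all 7 libraries. They were picked by measured counts of unique molecular identifiers (UMIs, one per captured RNA molecule). A cell was kept with at least 500 detected genes and at most 10% of UMIs in mitochondrial genes. A kept cell met the astrocyte rule with at least 3 UMIs summed over Aqp4, Slc7a10, Gjb6, Agt and Slc39a12, at most 1 of Pdgfra, at most 1 of Mog, Mag and Opalin together, and at most 2 of Cx3cr1, P2ry12 and Tmem119 together. The rule gave 983 cells from the P60 cortex library, 107 from the grey matter one and 90 from the white matter one.

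The study profiled single cells of untreated mouse forebrain at several postnatal ages with the 10x Genomics 3′ droplet kit. The P60 libraries, all from CD1 mice, were cortex (the tissue above the lateral ventricles, with the ventricular-subventricular zone, white matter and grey matter), grey matter (the tissue above the white matter) and white matter (corpus callosum with the ventricular-subventricular zone). They were set against 4 early postnatal libraries, P2, P7 and P15 cortex from CD1 mice and P7 subventricular zone (SVZ) from C57BL/6 mice. Each group of age and region is 1 library and the labels do not say how many animals it pools. The p-values therefore measure the spread between libraries of a stage. That spread holds differences of region, among early libraries also of age and strain, and may be technical in part. Cells of the early libraries that met the same rule numbered 189, 1782, 480 and 739 at P2 cortex, P7 cortex, P7 SVZ and P15 cortex.

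Astrocytes are the glia that take up glutamate and GABA from synapses, clear potassium through inward rectifier channels and gap junctions, move water through aquaporin-4 on their endfeet, and supply neurons with lipids and metabolites. They arise from radial precursors around birth and divide locally in the first postnatal weeks. Mature astrocytes of cortical grey matter are known for low levels of glial fibrillary acidic protein (Gfap), whereas fibrous astrocytes of white matter are known for high levels.

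Rule cells of a library were summed before any comparison. The P60 sums held 2685953, 315475 and 261102 UMIs in cortex, grey matter and white matter, and the early sums 1434861 to 12377454. P60 rule cells were shallower, with a median of 2630 to 2687 UMIs against 5100 to 7691 in early rule cells, so that 3 UMIs of the rule genes are a stricter demand at P60. Levels are given in CPM (UMIs of a gene scaled to a common library total), and 3 UMIs, the limit that a count of 0 allows, correspond to 1.12, 9.51 and 11.5 CPM in the 3 P60 sums. The sex of the animals is not in the labels used here. The 3 P60 sums held 0 UMIs of the Y-linked genes Eif2s3y and Ddx3y, which lay at 35.5 to 123 and 31.0 to 76.6 CPM in the early sums, and Xist lay at 6783 to 7001 CPM against 307 to 1307 CPM. The sex makeup of the libraries and the stage therefore cannot be told apart. Between 0 and 28 cell barcodes were shared by any pair of libraries.

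The label of adult astrocytes was checked against its 4 markers. Each cell was thinned to 1500 UMIs for this, which left out 44, 5 and 7 cells. Slc7a10, a neutral amino acid transporter, had a UMI in 77.1% of cortex, 68.6% of grey matter and 78.3% of white matter rule cells. Aqp4, the water channel, had one in 38.3%, 45.1% and 42.2%, and Slc39a12, a zinc transporter, in 35.4%, 67.6% and 26.5%. Agt, the angiotensin precursor, was found in only 2.45%, 8.82% and 2.41% of cells, so the cells rest on the other markers. These genes chose the cells, so the shares are a description. In microglia marker-positive cells of the same libraries, thinned alike, the shares lay between 0 and 0.594% for Slc7a10 and between 0 and 0.219% for Aqp4. All other marker-positive classes were limited to cells with at most 1 UMI of the rule genes. These low shares therefore follow from the choice of cells and are no check of the label.

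Markers outside the rule also marked the cells. Slc1a2 and Slc1a3, the glutamate transporters, were found in 98.3% and 98.6% of thinned cortex cells, in 99.0% and 98.0% of grey matter cells and in 94.0% of white matter cells each. Gja1, the main astrocyte connexin, was found in 91.3%, 88.2% and 88.0%. Among 2471 genes at 50 CPM or more in all 3 P60 sums, 112 lay at least 4 times above every other marker-positive class of the same library (oligodendrocyte, microglia, Pdgfra-positive, endothelial and, where summed, neuroblast cells) in all 3 libraries, of which 4 were rule genes. The highest of these outside the rule was Cldn10, a tight junction claudin, at 1153, 1274 and 988 CPM in cortex, grey matter and white matter, followed by the ion pump modulator Fxyd1, the phosphorylase kinase subunit Phkg1, Fjx1, the neurotensin receptor Ntsr2, the NMDA receptor subunit Grin2c and the growth factor receptor Fgfr3. The rule chose the cells by this contrast, so it was not tested.

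Cells just outside the rule resembled those just inside. In P60 cortex, 62 cells with 2 rule UMIs had a median of 2063 UMIs, and 95.2% of them carried at least 3 UMIs summed over 5 astrocyte genes outside the rule, Aldoc, Gja1, Slc4a4 and Ntsr2 among them. The 99 cells with 3 rule UMIs had a median of 2216 UMIs, and all of them carried at least 3.

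Rule cells made up 31.6% (95% Clopper-Pearson interval 29.9 to 33.2) of kept cells of P60 cortex, 5.69% (4.69 to 6.84) for grey matter and 4.52% (3.65 to 5.52) for white matter. The intervals cover counting error only. The mean over libraries was 13.9 ± 15.3% at P60 (SD, n = 3) and 21.9 ± 16.4% in early libraries (SD, n = 4). The rule chose these cells and the ranges overlap, so the shares are given as a description, with no test.

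Few genes passed the test between stages. With edgeR's quasi-likelihood test on 11548 genes and Benjamini-Hochberg adjustment, 4 genes were higher at P60 and 4 lower at an adjusted p under 0.05, which is 0.0346% of genes tested in each direction. At an unadjusted p under 0.05 there were 3017 genes. The rule genes were left out of the test. The count depended on single libraries. Without P15 cortex, 1415 genes were higher and 1478 lower, whereas without any 1 of the 3 P60 libraries, or without P7 cortex, no gene passed in either direction. Without P2 cortex there was 1 higher and none lower, and without P7 SVZ 1 higher and 2 lower. Without cells that carried 3 or more UMIs of ependymal, endothelial or neuroblast markers, a choice made after seeing the data, 14 genes were higher and 10 lower.

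Prelp rose at P60 (chromosome 1, 133910304 to 133921414, minus strand, mm10). It encodes a small leucine-rich proteoglycan of the extracellular matrix, and had 112, 91.9 and 130 CPM in cortex, grey and white matter at P60, against 2.79, 9.29, 13.0 and 12.7 CPM in P2 cortex, P7 cortex, P7 SVZ and P15 cortex. All P60 values lay far above all early values, including P15, and the log2 fold change was 3.49 ± 0.41 (SE, edgeR adjusted p = 0.0366). Wls, the carrier that brings Wnt proteins to the cell surface (chromosome 3, 159839672 to 159938664, plus strand), had 76.3, 165 and 80.4 CPM at P60 against 13.2 to 22.5 CPM in early sums, a log2 change of 2.58 ± 0.35. Nol3, an inhibitor of apoptosis, rose to 24.6, 15.8 and 34.5 CPM against 1.18 to 4.18 CPM. Rab26os, annotated antisense, had 90.5, 91.9 and 130 CPM against 7.34 to 23.8 CPM, and whether its reads can be told from those of the gene on the other strand is not given in the sources used here.

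The genes that fell were Fxyd6, Tagln and the 2 Y-linked genes above. Fxyd6 (chromosome 9, 45370185 to 45396159, plus strand), a modulator of the sodium pump, had 2.61, 0 and 3.83 CPM in cortex, grey and white matter at P60, against 358, 430, 716 and 62.4 CPM in P2 cortex, P7 cortex, P7 SVZ and P15 cortex. Its log2 change was -7.31 ± 1.0 (edgeR adjusted p = 0.0366). Fxyd1 of the same family lay on the other side, at 595, 422 and 609 CPM against 78.1 to 346 CPM, without passing the test (log2 change 1.20 ± 0.45, edgeR adjusted p = 0.135). Tagln, the actin-binding protein transgelin, had 0.745, 0 and 0 CPM at P60 against 20.2 to 42.6 CPM. With cells chosen by the 5 genes outside the rule that include Aldoc and Gja1, no gene passed in either direction. The log2 change of Tagln was then 2.73, while those of Prelp, Wls and Fxyd6 kept their sign. These 5 genes also differed with age. In rule cells they summed to 4124 to 13147 CPM in early sums and 12348 to 17380 CPM at P60.

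**Figure D1:**
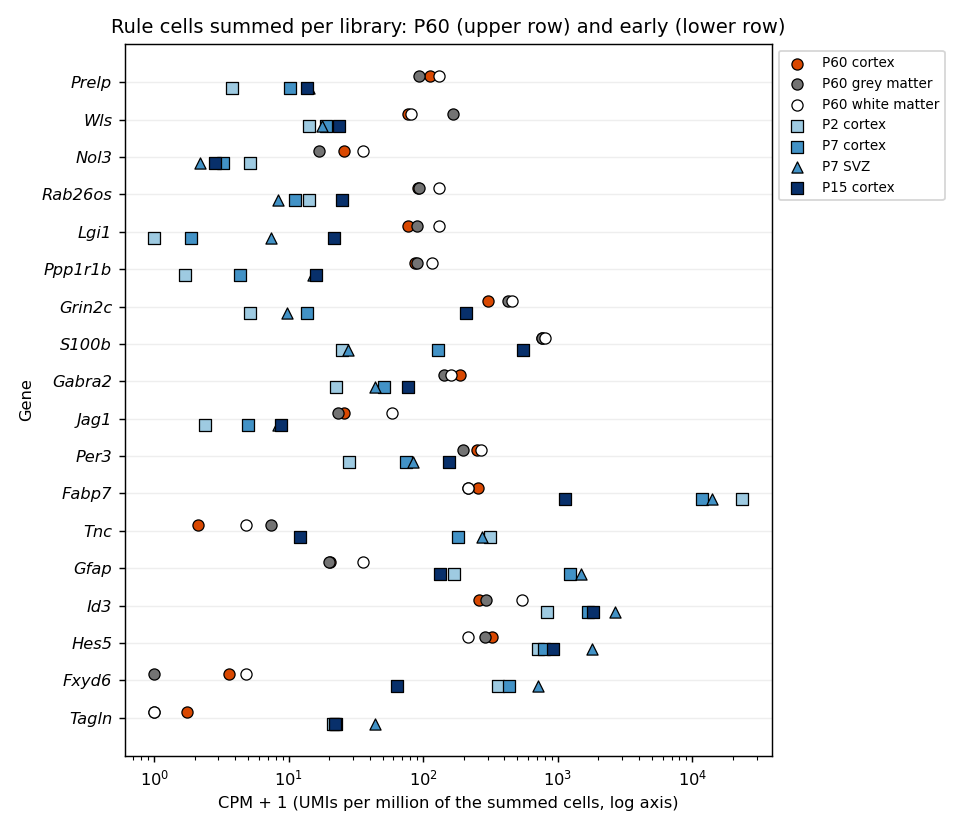
CPM + 1 on a log axis for 18 genes, with P60 libraries as circles and early libraries as squares or a triangle, each point 1 library. The 3 P60 circles lie on 1 side of all 4 early values for each gene shown, and P15 cortex is the nearest early library for most of them. For Tnc the order is not measurable at the depth of the white matter sum.

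A larger set of genes did not overlap between the stages without passing the test. All 3 P60 values lay above all 4 early values for 1274 genes (11.0% of those tested) and below them for 1525 (13.2%). P15 was the early library nearest to the P60 mean for 6185 genes (53.6%), against 11.8% for P2, 17.4% for P7 cortex and 17.2% for P7 SVZ. Of 3920 genes at 50 CPM or more, 94.3% lay within 2-fold of the P60 mean at P15, against 56.6% at P2 and 70.1% at P7 cortex. The lists below are described by such counts, to be read beside these shares over all genes. None of their members passed the test unless it is named as called, and no list was tested as a set.

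Part of the transmitter handling genes stood higher at P60. Of 19 tested genes of glutamate and GABA handling, 7 had all P60 values above all early values and 1 below, with a median log2 change of 0.47, against -0.05 over all genes. Gabra2, a GABA-A receptor subunit, had 185, 143 and 161 CPM in cortex, grey and white matter at P60, against 21.6 to 75.3 CPM in early sums (log2 change 1.78 ± 0.38, edgeR adjusted p = 0.0656). Grin2c had 302, 422 and 456 CPM against 4.18, 12.6, 8.76 and 207 CPM in P2 cortex, P7 cortex, P7 SVZ and P15 cortex. P15 thus stood close to the P60 values and the other early libraries far below. The metabotropic receptors stood on opposite sides, with Grm3 at 220, 349 and 211 CPM against 52.3 to 170 CPM and Grm5 at 32.8, 15.8 and 26.8 CPM against 50.2 to 176 CPM. Slc1a2, the main glutamate transporter, overlapped between the stages, at 3647, 5176 and 3435 CPM against 638 to 5488 CPM, as did glutamine synthetase Glul, at 2607, 4102 and 2378 CPM against 745 to 4518 CPM.

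Genes of potassium, water and pH balance gave 5 above and 2 below of 20 tested. The dystrophin complex members Dtna, at 669, 704 and 774 CPM against 220 to 579 CPM, and Dmd, at 311, 238 and 276 CPM against 67.6 to 228 CPM, lay above every early value. Kcnj10, the inward rectifier that takes up potassium, overlapped, at 241, 368 and 368 CPM against 89.4 to 299 CPM. Of 30 astrocyte identity genes, 3 lay above all early values and 1 below, against 11.0% and 13.2% of all genes tested. S100b, a calcium-binding protein, was the clearest of them between stages, at 764, 764 and 797 CPM against 23.7, 128, 26.7 and 546 CPM in P2 cortex, P7 cortex, P7 SVZ and P15 cortex. It was not highest in these cells at P60, since another marker-positive class reached 930 CPM in grey matter and 1175 CPM in white matter. Sox9, the transcription factor of astrocyte fate, lay below, at 260, 301 and 280 CPM against 351 to 507 CPM.

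Many progenitor genes lay below early values. Of 23 progenitor and immature genes tested, 11 lay below all early values and none above, with a median log2 change of -2.76. Fabp7, the brain fatty acid-binding protein of radial glia, had 254, 212 and 214 CPM at P60 against 23521, 11859, 14065 and 1138 CPM in P2 cortex, P7 cortex, P7 SVZ and P15 cortex (log2 change -5.77 ± 0.94, edgeR adjusted p = 0.0646). Tnc, the matrix glycoprotein tenascin-C, had 1.12, 6.34 and 3.83 CPM against 11.1 to 309 CPM, and Marcksl1, a regulator of actin, 9.31, 50.7 and 34.5 CPM against 121 to 1388 CPM. Of 31 S and G2M phase genes tested, 15 lay below and none above, but for 14 of the 15 the lowest early value was at or under 11.5 CPM, the limit that a count of 0 allows in white matter, so their order against it is not measurable at this depth. The same holds for 4 of the 11 progenitor genes, Tnc among them, and for 363 of the 1525 over all genes. Top2a, the replication topoisomerase, had 1.12, 0 and 0 CPM against 2.59 to 67.2 CPM. Its P60 cortex value is 3 UMIs, at the limit that a count of 0 allows. Summed neuron markers moved with these lists, at 394, 72.9 and 99.6 CPM in the P60 sums against 420 to 1263 CPM in the early sums, and their part in these differences was not tested.

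Gfap was low in the rule cells of every P60 library. It had 19.4, 19.0 and 34.5 CPM in cortex, grey and white matter at P60, against 167, 1228, 1484 and 132 CPM in P2 cortex, P7 cortex, P7 SVZ and P15 cortex (log2 change -5.02 ± 0.98, edgeR adjusted p = 0.0656). The white matter value is not higher than that of grey matter beyond counting error, since the 95% Poisson intervals overlap. A Gfap UMI was found in 34 of 983, 5 of 107 and 6 of 90 cells before thinning. After thinning the shares were 2.45% (23 of 939), 4.90% and 3.61%, against 0%, 0.0731% and 0.281% of thinned microglia marker-positive cells. These values cover rule cells only. The choice by the other astrocyte genes, Aldoc and Gja1 among them, gave 202 white matter cells against 90 by the rule. Gfap in the cells that the rule left out is not given here. Of 20 tested genes of white matter and reactive astrocytes, 8 lay below all early values and 2 above. The other intermediate filament, Vim, overlapped between the stages at 14.9, 76.1 and 30.6 CPM against 44.5 to 858 CPM. Without the rule cells that carried ependymal, endothelial or neuroblast markers, Vim had 4.94, 76.1 and 0 CPM at P60. The overlap rests on the grey matter value, and another marker-positive class of that library reached 1247 CPM. The complement gene C3 and the lipocalin Lcn2, both known from reactive astrocytes, had 0 UMIs in all 3 P60 sums.

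Signalling genes stood on both sides. Of 20 Notch, BMP and hedgehog genes tested, 5 lay above and 5 below. Below were the Notch targets Hes5, at 324, 285 and 214 CPM against 713 to 1783 CPM, and Hey1, at 38.7, 31.7 and 30.6 CPM against 60.6 to 113 CPM, and the BMP-responsive genes Id1, at 55.5, 63.4 and 111 CPM against 174 to 858 CPM, and Id3, at 258, 292 and 544 CPM against 833 to 2674 CPM. Id2 and Id4 overlapped between the stages. Above were the Notch ligand Jag1, at 24.6, 22.2 and 57.4 CPM against 1.39 to 7.76 CPM (log2 change 2.60 ± 0.53, edgeR adjusted p = 0.0656), the receptor Notch2, Bmpr1b, Bmp7 and the hedgehog-binding protein Hhip. Notch1, Hes1, Bmpr1a and the hedgehog genes Ptch1, Smo, Gli1, Gli2 and Gli3 overlapped between the stages as well, and the fifth gene below was Hey2.

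Among the lists described, clock genes gave the largest share above early values, 6 of 15 with none below, and a median log2 change of 1.05. Per3 had 251, 197 and 268 CPM in cortex, grey and white matter at P60 against 27.2, 73.6, 83.1 and 155 CPM in P2 cortex, P7 cortex, P7 SVZ and P15 cortex. Ciart, a repressor of the clock, had 20.5, 31.7 and 23.0 CPM against 1.39 to 9.29 CPM, and Arntl and Clock, the activator pair, 53.6, 57.1 and 72.8 CPM against 20.4 to 52.3 CPM and 49.5, 38 and 46.0 CPM against 46.7 to 54.2 CPM. The time of day at which tissue was taken is not in the labels used here.

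A minority of cholesterol synthesis genes lay below every early value. Of 20 cholesterol synthesis genes tested, 6 did so and none lay above, with a median log2 change of -0.36. Hmgcs1, an early synthase of that pathway, had 243, 285 and 280 CPM at P60 against 409 to 1017 CPM, and Fdps 117, 143 and 115 CPM against 154 to 426 CPM. Fabp5, a fatty acid-binding protein, had 799, 653 and 571 CPM against 1627 to 3209 CPM. Among energy genes, the fatty acid activating enzymes lay above, Acsl3 at 918, 821 and 720 CPM against 49.5, 132, 142 and 631 CPM in P2 cortex, P7 cortex, P7 SVZ and P15 cortex, and Acsl6 at 471, 691 and 475 CPM against 95.8 to 422 CPM. Of the 21 energy genes tested, 5 lay above and none below.

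Counts for the other lists were mixed, against 11.0% above and 13.2% below over all genes tested. Of 17 secreted synapse organisers tested, 3 lay above and 4 below, of 20 cortical grey matter genes 5 above and 2 below, of 23 transcription factors 1 above and 3 below, of 25 receptors 3 above and 2 below, and of 21 neural stem cell genes of the ventricular-subventricular zone none above and 3 below. Among synapse organisers, Chrdl1, which drives synapse maturation, had 56.6, 124 and 57.4 CPM at P60 against 7.81 to 48.6 CPM. Sparc, an antagonist of synapse formation, had 54.7, 130 and 134 CPM against 262 to 1361 CPM. Without the rule cells that carried ependymal, endothelial or neuroblast markers, Sparc had 49.4, 130 and 42.9 CPM at P60. Rorb was the transcription factor above, at 859, 634 and 812 CPM against 132 to 530 CPM. The dissociation response list had 1 gene below and none above of 24. Its summed level was 1310, 3113 and 1792 CPM in cortex, grey and white matter at P60, against 5854, 5890, 10475 and 1593 CPM in P2 cortex, P7 cortex, P7 SVZ and P15 cortex, and its part in the stage differences was not tested. Summed microglia markers were 451, 1306 and 184 CPM in the P60 sums against 25.8 to 187 CPM in the early sums, with 2 of 9 above all early values and with Cx3cr1 and Csf1r at 0 in white matter, and their part was not tested either.

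**Figure D2:**
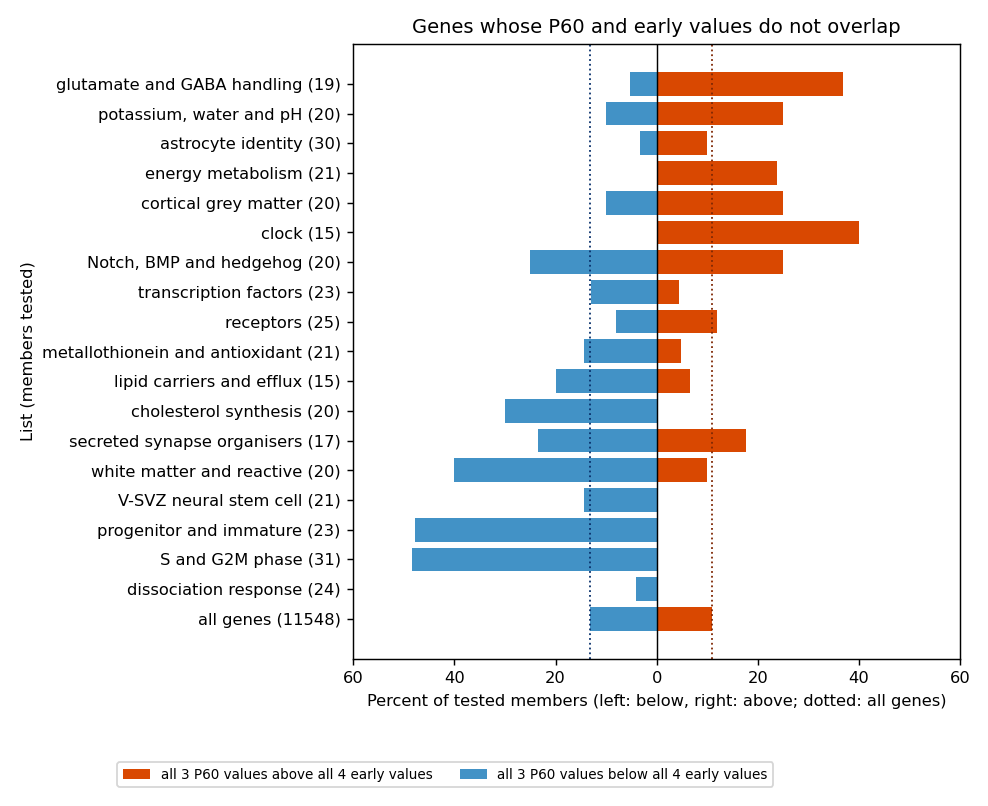
Percent of each list's tested members with all 3 P60 values above all 4 early values (right, orange) or below them (left, blue), with the number tested in brackets and the share over all 11548 genes dotted. Clock genes reach furthest to the right, at 6 of 15, and S and G2M phase genes furthest to the left, at 15 of 31, of which 14 had an early value at or under the limit that a count of 0 allows in white matter.

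Because P15 lay closest to P60, the genes that still separated these ages were listed, a comparison with no test since P15 is 1 library. Of 3306 genes at 50 CPM or more, 31 (0.938%) had all 3 P60 values at least 2-fold above the P15 cortex value, and 33 (0.998%) at least 2-fold below it. Prelp led the first group, with a ratio of P60 cortex to P15 cortex of 8.81 (95% exact interval 6.50 to 12.2, counting error only). Others in this group were Ppp1r1b, the phosphatase inhibitor DARPP-32, at 86.4, 88.8 and 115 CPM against 15 CPM, and Lgi1, a secreted ligand of synaptic ADAM proteins, at 76.3, 88.8 and 130 CPM against 20.7 CPM. Lgi4 of the same family had 137, 139 and 203 CPM against 61.3 CPM, and the cell adhesion protein Ntm 1391, 2549 and 1371 CPM against 459 CPM. In the second group, Id3 had 258, 292 and 544 CPM in the P60 sums against 1823 CPM at P15, Hes5 324, 285 and 214 CPM against 916 CPM, and Nrarp, another Notch target, 204, 136 and 199 CPM against 522 CPM. Prss56, a secreted protease, had 25.3, 79.2 and 19.1 CPM against 830 CPM at P15, and 4.18, 92.1 and 0 CPM in P2 cortex, P7 cortex and P7 SVZ. P15 was its highest library by far.

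Metallothionein levels differed mainly between P7 and P15. These small cysteine-rich proteins bind zinc and copper, Mt1 and Mt2 in most tissues and Mt3 mainly in brain, and their genes stand together on chromosome 8 of mm10 (Mt3 at 94152607 to 94154146, Mt2 at 94172664 to 94173568 and Mt1 at 94179082 to 94180327, all on the plus strand). The 250 bases before the RefSeq start site of Mt1 and Mt2, whose values moved alike, are shown to let the metal response element core be seen, the site of the metal-sensing factor Mtf1. Capitals mark TGCACNC or TGCGCNC on either strand, and no matches overlap. The windows are chr8:94178839-94179088 and chr8:94172368-94172617, plus strand, from RefSeq on GRCm38.p6.
Mt1: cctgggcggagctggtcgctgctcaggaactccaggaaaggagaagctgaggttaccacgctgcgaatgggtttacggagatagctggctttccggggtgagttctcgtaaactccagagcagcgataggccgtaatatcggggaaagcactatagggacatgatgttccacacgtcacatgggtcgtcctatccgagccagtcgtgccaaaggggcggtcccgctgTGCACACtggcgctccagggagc
Mt2: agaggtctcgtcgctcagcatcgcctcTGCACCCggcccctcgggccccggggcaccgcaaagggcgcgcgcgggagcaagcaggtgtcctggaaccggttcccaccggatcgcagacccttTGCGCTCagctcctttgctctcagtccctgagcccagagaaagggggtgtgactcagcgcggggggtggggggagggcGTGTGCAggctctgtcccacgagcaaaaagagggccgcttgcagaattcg

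The window of Mt1 held 1 match, that of Mt2 held 3 and that of Mt3 held 0. The windows are not placed alike against the gene starts given above. That of Mt1 ends at 94179088, past the gene start at 94179082. That of Mt2 ends at 94172617, short of the gene start at 94172664. Bases outside the windows were not searched, so the counts do not give the number of sites in either promoter. Of 27025 genes with such a window, 23.8% held at least 1 match, 5.91% at least 2 and 1.46% at least 3. A match describes letters and is no evidence of binding.

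Mt1 had 852, 1072, 1434 and 10536 CPM in P2 cortex, P7 cortex, P7 SVZ and P15 cortex, and 9119, 6514 and 9058 CPM in cortex, grey and white matter at P60. Mt2 had 484, 460, 369 and 4024 CPM in those early libraries, and 3021, 2244 and 2555 CPM at P60. For both genes P15 was the highest library, the P60 values lay below it, and the libraries of P2 and P7 lay far below the P60 values. Mt3 had 3237, 2731, 2711 and 5102 CPM at the early ages and 6229, 5015 and 7066 CPM at P60. None of them passed the stage test (edgeR adjusted p = 0.362, 0.461 and 0.196 for Mt1, Mt2 and Mt3). Of 21 metallothionein and antioxidant genes tested, 1 lay above all early values, Gstm1, a glutathione transferase, at 1038, 1566 and 912 CPM at P60 against 494 to 631 CPM, and 3 below.

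**Figure D3:**
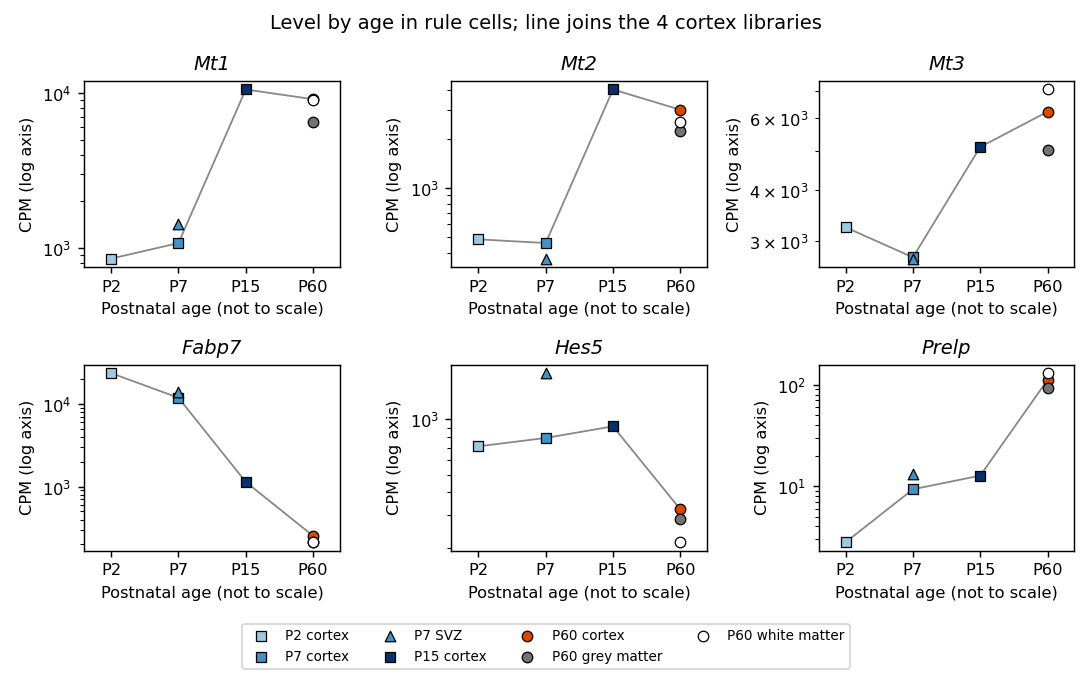
CPM on a log axis by postnatal age for 6 genes, each point 1 library and the line joining the cortex libraries. Mt1 and Mt2 are at their highest in P15 cortex, and Fabp7 is lower at each later age. Prelp differs mainly between P15 and P60, and Hes5 is lower at P60 than in every early library.

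Within P60, white matter was set against grey matter, with 1 library each and therefore no test. The rule cells of the 2 libraries numbered 90 and 107. Of 3877 genes at 50 CPM or more in the higher library, 486 (12.5%) were at least 2-fold higher in white matter and 325 (8.38%) at least 2-fold lower. Median-of-ratios scaling gave 355 higher and 413 lower, so the balance of directions depends on the scaling. The median log2 ratio over all these genes was 0.15. Several other measures differed between the 2 libraries. White matter rule cells had a median of 2.86% mitochondrial UMIs, against 6.97% in grey matter and 3.27% in cortex. Summed microglia markers were 184 CPM in white matter and 1306 CPM in grey matter, and the summed dissociation response 1792 CPM and 3113 CPM. Summed oligodendrocyte markers were 896 CPM in white matter and 260 CPM in grey matter, with 4 of 5 past 2-fold higher in white matter. Summed endothelial and mural markers were 460 CPM in white matter and 143 CPM in grey matter, with 3 of 4 past 2-fold higher. The part of these in the ratios below was not tested.

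The 10 genes most firmly higher in white matter were Ccdc153, Meig1, Pvalb, Tmem212, Dynlrb2, Fam183b, Ascc1, Rsph1, Nuf2 and Fam216b, several of them known from motile cilia. Each had 17 to 58 UMIs in the white matter sum and 0 in the grey matter sum. They came from few cells. Of the 90 white matter rule cells, 4 also carried at least 3 UMIs of ependymal markers and 1 of endothelial markers, and none of the grey matter rule cells did. Without these 5 cells the UMIs were 0 for 8 of the 10 genes, 1 for Meig1 and 2 for Ascc1. Summed ependymal markers were 1245 CPM in white matter and 50.7 CPM in grey matter. The label of that library includes the ventricular zone, which ependymal cells line.

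With such cells removed in all libraries, a choice made after seeing the data, 469 of 3932 genes (11.9%) were at least 2-fold higher in white matter and 318 (8.09%) lower. Ranked by the interval bound nearest 1, Rnf121 then came first, with 347 CPM in white matter and 53.9 CPM in grey matter (ratio 6.44, 95% exact interval 3.79 to 11.6). Insig1, a regulator of sterol synthesis, came next, with 459 CPM and 143 CPM (ratio 3.22, 2.25 to 4.66). After it stood Nrn1, on 14 and 2 UMIs, and the chemokine Cxcl14, with 2027 CPM and 862 CPM (ratio 2.35, 2.02 to 2.74). Lyrm4, on 22 and 6 UMIs, and the long noncoding RNA Neat1, with 853 CPM and 349 CPM (ratio 2.45, 1.93 to 3.12), followed. P60 cortex had 254 CPM of Rnf121, 298 CPM of Insig1, 1834 CPM of Cxcl14 and 440 CPM of Neat1. For Cxcl14 the cortex value thus lay near that of white matter.

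Lower in white matter was Apoe, the main lipid carrier made by astrocytes (chromosome 7, 19696109 to 19699188, minus strand), with 8763 CPM (95% Poisson interval 8407 to 9129) against 27245 CPM (26672 to 27827) in grey matter, a ratio of 0.322 (0.307 to 0.337). Clu, clusterin, another lipid carrier (chromosome 14, 65968483 to 65981547, plus strand), had 1808 CPM and 5896 CPM, a ratio of 0.307 (0.277 to 0.339). P60 cortex had 12288 CPM of Apoe and 2174 CPM of Clu, nearer to white matter for both. The glycolytic enzyme Gapdh had 670 CPM in white matter and 1851 CPM in grey matter, the glycine decarboxylase Gldc 42.1 CPM and 187 CPM, the membrane glycoprotein Gpm6a 663 CPM and 1772 CPM, the glucocorticoid-activating enzyme Hsd11b1 65.1 CPM and 244 CPM, and the fatty acid dehydrogenase Acadl 42.1 CPM and 178 CPM. Slc12a9, Cwc22 and Tsix, the antisense partner of Xist, completed the 10. Without the 5 white matter cells above, the ratios of Apoe and Clu were 0.346 and 0.321. In microglia marker-positive and other marker-positive classes, Apoe reached at most 9111 CPM in grey matter and 2937 CPM in white matter. Clu reached at most 503 CPM and 140 CPM there. These highest values of other classes were thus also lower in white matter. Whether the difference is shared by all cells of the libraries was not tested.

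By list, 7 of 16 energy genes were at least 2-fold lower in white matter and none higher, 6 of 30 astrocyte identity genes lower and none higher, and 5 of 15 receptors lower and none higher. The dissociation response had 8 of 14 lower and 1 higher, and the microglia markers 9 of 9 lower. Genes known from white matter or reactive astrocytes had 1 of 12 higher and 4 lower, and cortical grey matter genes 1 of 19 higher and 4 lower. Slco1c1, the thyroid hormone carrier, was 1 of these 4, at 241 CPM in white matter and 935 CPM in grey matter, while the thyroid enzyme Dio2 had 203 CPM and 330 CPM. Genes of transmitter handling were close, with 1 higher and 1 lower of 17. Over all genes compared, 12.5% were higher in white matter and 8.38% lower. Of the genes past 2-fold, P60 cortex lay nearer to white matter than to grey matter for 311 of 486 that were higher in white matter and for 227 of 325 that were lower.

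**Figure D4:**
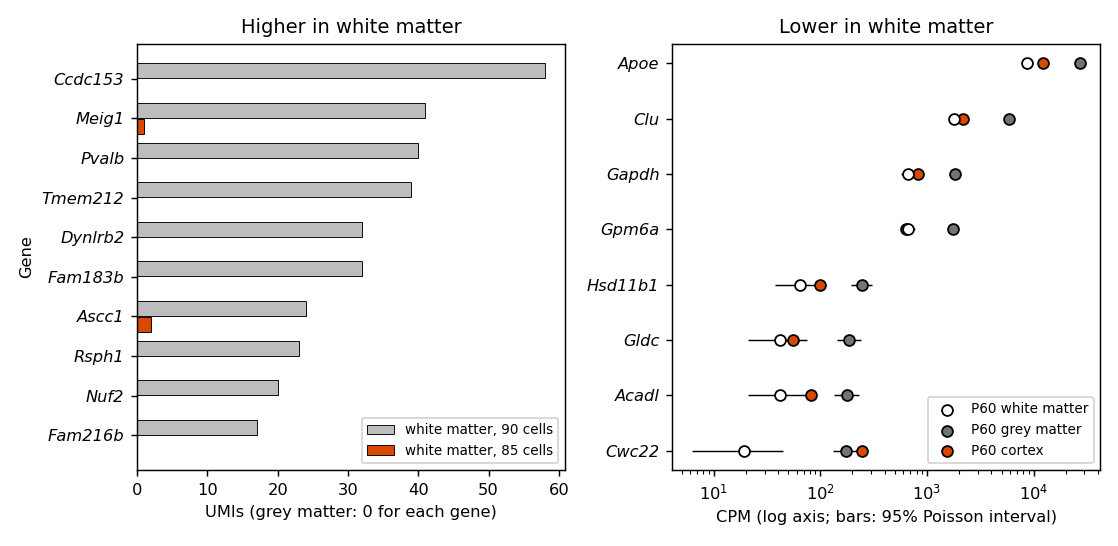
Left, UMIs of the 10 genes named as higher in white matter, over all 90 white matter rule cells (grey) and over the 85 without markers of another class (orange). Right, CPM with 95% Poisson intervals for 8 genes lower in white matter, where P60 cortex lies nearer to white matter than to grey matter for each gene except Cwc22.

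The spread among cells of 1 library was measured gene by gene. After thinning to 1500 UMIs, 787 genes had a mean of at least 0.2 UMIs in all 3 P60 libraries, and the median Fano factor (variance over mean, 1 for pure counting) was 1.08, 1.11 and 1.10 in cortex, grey matter and white matter. Apoe had 5.19, 9.47 and 6.42, Mt1 4.25, 3.36 and 5.92, and Clu 1.88, 4.70 and 3.77. Id3 stood out among low genes, with a Fano factor of 3.02, 1.93 and 3.12 and a UMI in only 20.1%, 22.5% and 34.9% of thinned cells, against 0.693% to 2.53% of microglia marker-positive cells. Another marker-positive class reached 2219 CPM of Id3 in white matter and 1132 CPM in grey matter. Rule cells without markers of other classes had 561 CPM and 292 CPM there. Hes5 had 2.02, 1.84 and 1.71. S100b, with 1.10, 1.60 and 1.20, lay close to counting noise in cortex and white matter. Dbi, which binds acyl-CoA, had 3.20 in cortex and 1.63 in grey matter but 17.3 in white matter. Of its 647 UMIs in the white matter sum, 180 were left without the 5 cells that carried markers of another class.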

How the data were processed

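The deposited matrices hold UMI counts per gene and cell. Per the file headers, Cell Ranger 3.0.2 produced them, and the submitters' processing notes name mm10. The counting strand is not given in the sources used here. Members and gene lists were chosen with earlier results of these data known, and cells were chosen by measured counts. Rule cells were summed per library, and sums were tested with edgeR 4.0.16 in R 4.3.3 (quasi-likelihood test after filterByExpr, scaled by TMM, with Benjamini-Hochberg adjustment at 0.05), first tested on simulated data. DESeq2 1.42.0 was an alternative. Fold changes are P60 over early. The rule for named genes took called genes with at least 50 CPM and no overlap between stages, the 10 genes a side whose white to grey matter interval lay furthest from 1 and that reached the level of every other class there, and members of the gene lists as examples. Nol3, Tagln and the Y-linked genes (the other calls), Prss56, Nrarp, Lgi1, Lgi4, Ntm, Ppp1r1b and Dbi were chosen after their values were seen. Shares have Clopper-Pearson, levels Poisson and ratios conditional exact intervals at 95%, all for counting error only. Shares of cells with a UMI used cells thinned to 1500 UMIs. Doublets were called with scrublet in scanpy 1.11.5 and not removed in the values given, where 4 P60 rule cells were called. Coordinates are from GENCODE M21, and 31011 of 31053 gene rows matched it. Alternatives covered scaling, test, filters, the cell rule, doublets and leaving out each library.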

Additional observations from a re-analysis of the deposited data

Results flagged for a closer look

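In the early group of 4 libraries, a value was singled out where its gap to the nearest other value took more than 82.9% of the group's range (Dixon's 95% limit), which chance gives for about 1 in 20 genes. P15 cortex stood above the other early libraries in this way for Mt1 (10536 CPM), Mt2 (4024 CPM), Grin2c (206.7 CPM), Acsl3 (630.5 CPM) and Prss56 (830.2 CPM). For the first 4 of these the P60 values lay on the same side as P15. P7 SVZ, the C57BL/6 library, stood above the others for Id1 (857.8 CPM), Notch2 (66.5 CPM) and Tagln (42.6 CPM) and below them for Arntl (20.35 CPM). Strain and region of that library cannot be told apart.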

How the results depend on the processing

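Counts of genes between stages, 4 higher and 4 lower with edgeR, were 5 and 4 with DESeq2 size factors, 3 and 3 with at least 5 rule UMIs and 5 and 4 without doublet calls. They were 409 and 703 with the DESeq2 Wald test and 206 and 407 with no filter on low counts. A rule on the 5 genes that include Aldoc and Gja1 (the Aldoc-Gja1 rule) gave 0 and 0, with 2106 genes at an unadjusted p under 0.05. Alternatives added after seeing the data gave 14 and 10 without cells of other markers and 1 and 2 against P7 and P15 cortex only. An adjusted p under 0.10, also added then, gave 489 and 772. Leaving out 1 library gave 0 to 1415 higher and 0 to 1478 lower, and where edgeR gave 0 in both directions, 1960 to 2530 genes had an unadjusted p under 0.05. The cause of these differences was not tested. Log2 changes turned sign for Tagln (2.73, Aldoc-Gja1 rule) and Glul (-0.199, against P7 and P15 cortex only). That of Id2 did so with at least 5 rule UMIs (-0.0443), against P7 and P15 cortex only (-0.295) and with 1 library left out (-0.152 to 0.372). That of Prss56 did so with 1 library left out (-3.33 to 0.244, the highest without P15 cortex). Genes past 2-fold in white against grey matter numbered 1214 higher (16.5%) and 739 lower (10.0%) of 7372 from 20 CPM. From 100 CPM they were 180 (9.79%) and 149 (8.11%) of 1838. With at least 5 rule UMIs they were 523 (13.4%) and 352 (9.03%) of 3900. With the Aldoc-Gja1 rule, on 202 white and 160 grey matter cells, they were 683 (16.2%) and 464 (11.0%) of 4227 genes. Of the white to grey matter ratios followed, the Aldoc-Gja1 rule moved 10 and left 9 the same. At least 5 rule UMIs moved 8 and left 15 the same. The share of rule cells in P60 cortex was 33.4% with at least 1000 genes, 33.5% with at least 2 rule UMIs and 24.6% with at least 5, and in grey matter 7.91% with a mitochondrial limit of 20% and 4.52% with at least 5 rule UMIs. A planned split of P60 cells by Gfap, with its alternatives, was not run, since Gfap was found in too few grey and white matter cells. No paired analysis was possible because replicate numbers only name libraries of different ages and regions.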
